A study of Mus musculus with 7 samples.

Results

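The 42 genes described here act in the G2 and M phases of the cell cycle: they encode mitotic cyclins and kinases, kinetochore and spindle proteins, motors, and the machinery of anaphase and cytokinesis. They were chosen by gene symbol from a fixed list, with earlier results of these data known. All 42 were found among the 29955 gene rows of the deposited table and passed the filter on low values. RNA sequencing measured their transcripts in 7 libraries from mouse embryonic fibroblasts (MEFs), connective tissue cells grown from embryos, of strain C57BL/6. Of these, 2 libraries came from MEFs without p53 that carried a knocked-in C462A substitution in Mdm2 (labelled p53ko Mdm2 C462A ki, here Mdm2 C462A), 2 from MEFs without p53 and without Mdm2 (p53Mdm2 ko, here p53/Mdm2 KO), and 3 from MEFs without p53 (p53 ko, here p53 KO). By these labels, loss of p53 was shared by every library. Mdm2 is best known as a ligase that attaches ubiquitin to p53. C462A replaces a cysteine of its RING domain, on which that activity depends. The labels do not describe the alleles, the age of the embryos, the cell density at harvest, or whether each replicate is its own embryo or culture. A p-value here therefore reflects only how far these libraries scatter, part of which may be technical.

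Entry into mitosis is driven by cyclin A and cyclin B bound to the kinase Cdk1, with Polo-like and Aurora kinases. Kinetochores then attach chromosomes to the spindle, a checkpoint holds anaphase until all are attached, and the anaphase-promoting complex (APC/C) releases it. Transcripts of these genes are scarce in resting cells, accumulate in G2 and fall again after division, which makes them markers of proliferating cells. Their promoters are known to be repressed in resting cells by the DREAM complex, which binds a cell cycle homology element (CHR, a hexamer TTTGAA or TTCGAA), and activated later by the MuvB core with B-Myb and Foxm1, often with the factor NF-Y at CCAAT boxes.

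Promoter sequences were available for 35 of the 42 genes, in the RefSeq promoter table of build GRCm38.p6, which covers 250 bases before and 50 bases after a gene's start (the submitters' notes name build mm9 for the expression data, so no coordinates were carried between builds). Ccna2, Foxm1, Incenp, Aurkb, Kif20a, Tpx2 and Dlgap5 have no entry there. The hexamer TTTGAA or TTCGAA, on either strand, was present in 27 of these 35 promoters (77.1%), against 19.4% of all 27025 promoters of the same length. A list of other mitosis genes held it in 40 of 61 promoters (65.6%) and DNA replication genes in 6 of 33 (18.2%). It lay within the last 100 bases of the window in 25 of 35 (71.4%), against 5.29% of all promoters. CCAAT, on either strand, occurred at least once in 27 of 35 (77.1%, against 37.9% of all promoters) and at least 2 times in 19 (54.3%, against 12.2%). Both kinds of motif were found together in 24 of 35 (68.6%, against 45.9% of the other mitosis genes, 15.2% of the replication genes and 7.70% of all). In all 24 a CCAAT started upstream of the last hexamer, at a median spacing of 34.5 bases between the starts of these motifs (range 6 to 153), and the last hexamer of the 27 promoters that held one began at a median position of 6, with the gene's start counted as 1. A CCAAT and a hexamer can share a letter where they meet, and TTCGAA reads the same on both strands; a match describes letters, not binding.

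The first 6 promoters show this arrangement, each from 100 bases before to 30 bases after the start, 5′ to 3′ on the gene's own strand, with each CCAAT (or its complement ATTGG) and each hexamer (or its complement TTCAAA) in capitals. They were chosen after the matches were seen, from the genes with a hexamer near the start.
Ccnb2 (cyclin B2; chr9:70421525-70421654, minus strand): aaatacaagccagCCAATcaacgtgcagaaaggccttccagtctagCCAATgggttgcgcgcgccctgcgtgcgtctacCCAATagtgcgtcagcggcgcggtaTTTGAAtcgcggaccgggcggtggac.
Cdc20 (activator of the APC/C; chr4:118437314-118437443, minus strand): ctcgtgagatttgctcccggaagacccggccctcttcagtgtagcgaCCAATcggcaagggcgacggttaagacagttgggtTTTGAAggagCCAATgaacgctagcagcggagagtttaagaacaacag.
Kif23 (a kinesin of the spindle midzone; chr9:61946770-61946899, minus strand): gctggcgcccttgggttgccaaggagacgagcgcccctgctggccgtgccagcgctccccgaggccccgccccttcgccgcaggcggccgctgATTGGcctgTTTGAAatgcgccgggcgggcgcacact.
Prc1 (a microtubule crosslinker of the midzone; chr7:80294351-80294480, plus strand): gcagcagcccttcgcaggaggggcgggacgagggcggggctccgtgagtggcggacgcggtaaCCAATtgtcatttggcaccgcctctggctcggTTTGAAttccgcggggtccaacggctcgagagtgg.
Ttk (the checkpoint kinase Mps1; chr9:83834589-83834718, plus strand): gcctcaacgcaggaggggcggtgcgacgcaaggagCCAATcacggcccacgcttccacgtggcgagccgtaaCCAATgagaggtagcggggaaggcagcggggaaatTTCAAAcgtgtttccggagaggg.
Kif11 (the kinesin Eg5, which pushes spindle poles apart; chr19:37376282-37376411, plus strand): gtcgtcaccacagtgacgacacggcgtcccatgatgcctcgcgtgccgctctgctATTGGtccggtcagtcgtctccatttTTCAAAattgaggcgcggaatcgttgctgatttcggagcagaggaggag.
In all of these a hexamer in capitals follows a CCAAT in capitals by a short stretch, and Ccnb2 has a row of 3 CCAAT boxes.

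The naming rule took the 3 genes with a promoter entry and the largest differences between Mdm2 C462A and p53 KO, shown from 250 bases before to 30 bases after the start with the same capitals.
Mki67 (the Ki-67 antigen; chr7:135716350-135716629, minus strand): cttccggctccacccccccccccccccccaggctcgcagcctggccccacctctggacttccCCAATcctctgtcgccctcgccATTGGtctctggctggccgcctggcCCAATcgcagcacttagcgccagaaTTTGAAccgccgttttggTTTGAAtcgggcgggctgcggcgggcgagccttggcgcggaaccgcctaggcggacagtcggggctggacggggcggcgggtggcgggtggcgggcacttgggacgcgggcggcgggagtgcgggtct.
Birc5 (survivin; chr11:117848987-117849266, plus strand): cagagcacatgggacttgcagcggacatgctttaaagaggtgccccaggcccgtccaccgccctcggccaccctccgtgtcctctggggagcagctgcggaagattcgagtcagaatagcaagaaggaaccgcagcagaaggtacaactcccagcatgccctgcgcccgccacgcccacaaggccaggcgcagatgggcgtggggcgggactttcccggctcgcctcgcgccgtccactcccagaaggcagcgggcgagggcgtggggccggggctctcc.
Melk (a protein kinase of dividing cells; chr4:44300667-44300946, plus strand): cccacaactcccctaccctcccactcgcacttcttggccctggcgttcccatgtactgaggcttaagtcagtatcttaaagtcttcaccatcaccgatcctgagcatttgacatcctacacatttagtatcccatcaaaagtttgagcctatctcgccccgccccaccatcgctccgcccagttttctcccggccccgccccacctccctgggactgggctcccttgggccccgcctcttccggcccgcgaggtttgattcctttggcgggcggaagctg.
Mki67 holds 3 CCAAT motifs and 2 copies of TTTGAA, whereas no capital letter appears in the windows of Birc5 and Melk: these letters are not in these windows, which says nothing of what binds there. The 27 genes with a hexamer had a median log2 difference between Mdm2 C462A and p53 KO of -1.22, and the 8 without had -1.15; this contrast was not tested.

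The libraries differed in more than genotype. Recovered read totals ran from 28468283 to 41453822 reads, and the mitosis genes had between 335 reads (Cenpa in Mdm2 C462A replicate 2) and 18785 reads (Mki67 in p53 KO replicate 2), so counting error was at most 5.46% of a value. Levels below are normalized reads, recovered by inverting the authors' transformation. p53 KO replicate 1 stood apart: there, 815 of 16900 tested genes lay beyond the range of all other libraries by a factor above 4, and Mdm2 C462A replicate 2 was next with 154, so the counts and medians over gene lists are given with and without them, and the single-gene differences as ranges. Mdm2 itself had between 1574.5 and 2887 normalized reads across all 7 libraries and Trp53, the p53 gene, between 687.1 and 1776; without knowledge of the deleted parts neither checks a label. All 10 fibroblast markers were above 10 normalized reads in every library, but not evenly. Col1a2 had 3456 normalized reads in p53 KO replicate 1, against 369579.6 and 547553 in p53 KO replicates 2 and 3. Over the 7 libraries, Lum ran from 52.8 to 2156. Thy1 had 99.1 in p53 KO replicate 1 and 30211 and 30830.4 in p53 KO replicates 2 and 3. Several defining markers of other cell types were near 0: Krt5 had at most 0.909 normalized reads in any library, Pecam1 at most 6.01, Myod1 at most 0.928 and Gfap at most 6.47. Others on those lists were present in all libraries: over the 7, Kdr ran from 22.7 to 994, Des from 139 to 2388 and Nes from 1312 to 12332 normalized reads, and the part of such cells in the results was not tested. The blood marker Ptprc was at most 18 in the Mdm2 C462A libraries and reached 73.3 in p53 KO replicate 3. Summed over 6 blood markers, that library had 765.8 normalized reads, and p53 KO replicates 1 and 2 had 254.5 and 171.7. The same sum was 272.6 and 78.5 in Mdm2 C462A and 312.7 and 137.8 in p53/Mdm2 KO. The summed level of 6 epithelial markers was 217.5 and 730.3 normalized reads in Mdm2 C462A, 1261 and 65.7 in p53/Mdm2 KO, and 596.2, 315.6 and 248.1 in p53 KO, without a split by genotype.

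Mitosis transcripts were scarcest in Mdm2 C462A. Summed over the 42 genes, the level was 2931 and 1596 RPM (reads scaled to the library total) for Mdm2 C462A, 3430.4 and 4683 RPM for p53/Mdm2 KO, and 5188, 4510.2 and 4458 RPM for p53 KO. Both Mdm2 C462A libraries lay below all others, and p53/Mdm2 KO replicate 2 lay within the p53 KO range. Gene by gene, Mdm2 C462A replicate 2 was the lowest library for all 42 genes and Mdm2 C462A replicate 1 the second lowest for all 42. p53/Mdm2 KO replicate 1 lay below every p53 KO library for 41 of 42 genes, the exception being Cdca3, while p53/Mdm2 KO replicate 2 did so for 16. The shares of all tested genes with these orders of single libraries were not computed. Fewer cycling cells and less mitotic RNA per cell cannot be told apart in such bulk samples.

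**Figure D1:**
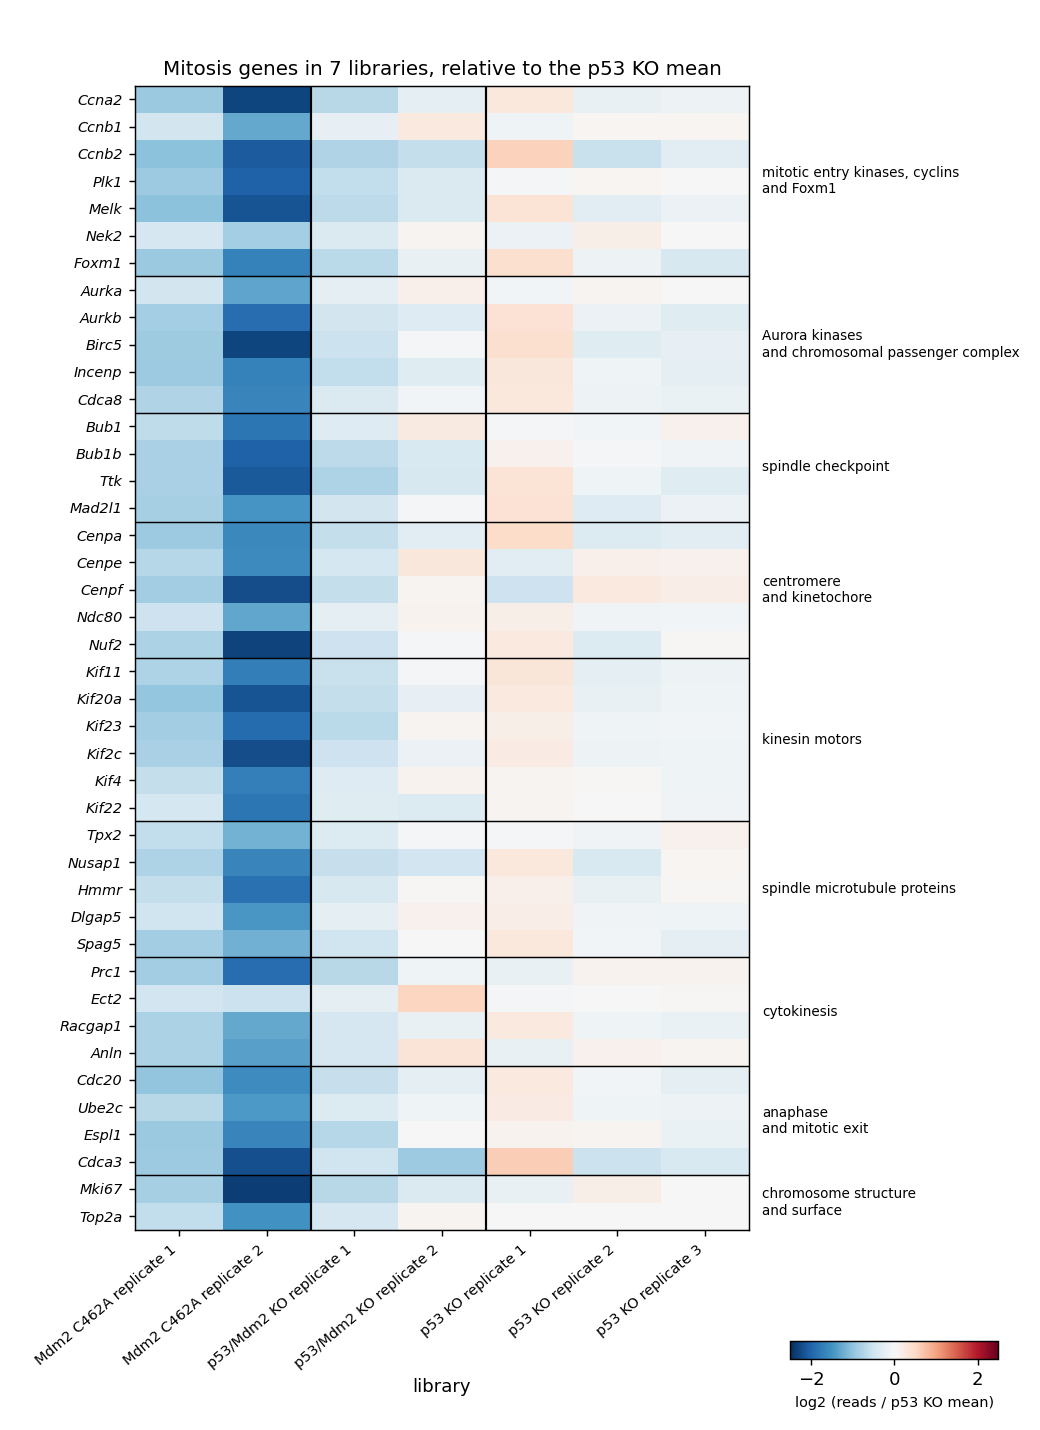
Heat map of the 42 mitosis genes (rows, ordered by role) in the 7 libraries (columns, Mdm2 C462A, p53/Mdm2 KO, then p53 KO). Colour gives the log2 ratio of a library's normalized reads to the p53 KO mean of that gene, blue below and red above; Mdm2 C462A replicate 2 is the lowest library for all 42 genes and Mdm2 C462A replicate 1 the second lowest.

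Relative to the p53 KO mean on the deposited log2 scale, the median over the 42 genes was -0.79 and -1.66 in the Mdm2 C462A libraries, -0.49 and -0.04 in the p53/Mdm2 KO libraries, and 0.20, -0.08 and -0.10 in the p53 KO libraries, each in replicate order. The Mdm2 C462A libraries therefore differed from each other: replicate 2 was below replicate 1 for all 42 genes, by a median of -0.94, where the median over all tested genes was -0.02. This gap ran from -1.53 for Mki67 to -0.06 for Ect2. The p53/Mdm2 KO libraries differed the other way, with replicate 2 above replicate 1 for 40 genes, Kif22 and Cdca3 being the exceptions. The median was 0.38 over the 42 genes and -0.01 over all tested genes, of which 51.0% were lower in replicate 2.

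By their labels, Mdm2 C462A and p53 KO differ by the RING substitution in cells that all lack p53. Other differences between these libraries cannot be told apart from it. All 42 genes were lower in Mdm2 C462A, against 48.8% of all tested genes, with fitted log2 differences from -1.59 (Ccna2) to -0.50 (Ect2) and a median of -1.22, where the median over all 16900 tested genes was 0.01. A log2 difference of more than 1 downward was seen in 35 of 42, against 4.21% of all tested genes. In none did the 2 Mdm2 C462A libraries overlap the 3 p53 KO libraries, a pattern on the lower side that 14.4% of tested genes had. By limma with Benjamini-Hochberg adjustment, 0 of the 42 and 0 of 16900 genes had an adjusted p under 0.05 (0% of all tested; adjusted p from 0.437 to 0.529 for the 42). At an unadjusted p under 0.05, 41 of the 42 were lower, Ect2 being the exception, against 5.44% of all tested genes on that side. Because the same libraries were lowest for all 42, the counts of members here and below are not independent observations of the genotype. In both directions 1761 genes (10.4%) had such a p. Shares of all tested genes, here and below, use all 7 libraries, and none was taken with libraries left out. The voom fit on recovered reads also called 0 genes. Without Mdm2 C462A replicate 2 the median was -0.79 and 19 of 42 genes had an unadjusted p under 0.05, and without both that library and p53 KO replicate 1 the values were -0.63 and 21; all 42 genes stayed lower in each. Without p53 KO replicate 1 alone they were -1.12 and 41. The 42 single differences ran from -0.98 to -0.41 without Mdm2 C462A replicate 2, from -1.72 to -0.51 without p53 KO replicate 1 and from -1.06 to -0.40 without both. The medians of the 9 role groups described next ran from -1.45 to -1.01 with all libraries, from -0.90 to -0.61 without Mdm2 C462A replicate 2, from -1.37 to -0.92 without p53 KO replicate 1 and from -0.77 to -0.60 without both.

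Among the regulators of mitotic entry, all 7 genes were lower in Mdm2 C462A (median log2 difference -1.45). Ccna2, which encodes the cyclin A of S phase and G2, had 3580.4 and 1383 normalized reads in the Mdm2 C462A libraries (replicates 1 and 2, in that order here and after), 4196 and 5805 in p53/Mdm2 KO, and 8163, 6018 and 6221 in p53 KO (replicates 1 to 3). The Mdm2 C462A mean of 2482 ± 1554 (SD, n = 2) was 36.5% of the p53 KO mean of 6801 ± 1184 (SD, n = 3), a log2 difference of -1.59 (SE 0.408, limma unadjusted p = 0.00706). Nek2, a centrosome kinase gene, had the smallest difference of this group, with 989 and 731 normalized reads in Mdm2 C462A, 1034 and 1383 in p53/Mdm2 KO, and 1193, 1462 and 1316 in p53 KO, a log2 difference of -0.62 (SE 0.223). Both Mdm2 C462A values lay below the lowest p53 KO value, with replicate 1 nearer to it than replicate 2. Ccnb1 and Ccnb2, which encode the B cyclins that activate Cdk1, differed by -0.87 and -1.46. The Polo-like kinase gene Plk1 differed by -1.45, Melk by -1.53, and Foxm1, the transcription factor gene that drives many of the others, by -1.26. Foxm1 had 2782 and 1654 normalized reads in Mdm2 C462A, 3323 and 4681 in p53/Mdm2 KO, and 7012, 4870.1 and 4017 in p53 KO, so its own level was lowest in the same libraries as those of the other mitosis genes.

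The Aurora kinases and the chromosomal passenger complex, which corrects faulty attachments and later steers cytokinesis, were lower in all 5 genes (median -1.27). Birc5, the survivin subunit, had 1634 and 614 normalized reads in Mdm2 C462A, 2072 and 2946 in p53/Mdm2 KO, and 4003, 2440.1 and 2618 in p53 KO and a log2 difference of -1.53 (SE 0.444). Its p53 KO values were themselves spread, with replicate 1 above the other pair. Aurka, the Aurora kinase of spindle poles, had 1672 and 929.6 normalized reads in Mdm2 C462A, 1941 and 2519.7 in p53/Mdm2 KO, and 2211, 2410.4 and 2298 in p53 KO, a difference of -0.88 (SE 0.272), and its p53 KO libraries lay close together (SD 99.8). Aurkb, the catalytic subunit of the complex, differed by -1.32, the scaffold subunit Incenp by -1.27 and the borealin gene Cdca8 by -1.18.

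The 4 spindle checkpoint genes had a median of -1.30. Bub1b, which encodes the BubR1 component of the inhibitor of Cdc20, had 2604 and 1123 normalized reads in Mdm2 C462A, 2867 and 3469.8 in p53/Mdm2 KO, and 4904, 4431 and 4286 in p53 KO and a log2 difference of -1.39 (SE 0.344). Here both p53/Mdm2 KO libraries also lay below all p53 KO libraries. Mad2l1, which encodes Mad2, had 1427 and 919 normalized reads in Mdm2 C462A, 1849 and 2503 in p53/Mdm2 KO, and 3270.2, 2047 and 2308 in p53 KO, a difference of -1.11 (SE 0.296), and the p53/Mdm2 KO libraries fell on both sides of its lowest p53 KO value. Bub1 and Ttk, the kinase genes of the checkpoint, differed by -1.20 and -1.39.

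Centromere and kinetochore genes had a median of -1.17 over 5 members. Nuf2, a subunit of the Ndc80 complex that grips microtubules, had 1420.3 and 496 normalized reads in Mdm2 C462A, 1716 and 2392 in p53/Mdm2 KO, and 2936, 1957 and 2504 in p53 KO and a difference of -1.51 (SE 0.445). Ndc80, its partner in that complex, had 1034 and 602 normalized reads in Mdm2 C462A, 1265 and 1571 in p53/Mdm2 KO, and 1636, 1397 and 1402 in p53 KO, a smaller difference of -0.88 (SE 0.263). The centromeric histone gene Cenpa differed by -1.17, the kinetochore motor gene Cenpe by -1.13 and Cenpf, which encodes a large protein of the outer kinetochore, by -1.48.

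All 6 kinesin motor genes were lower, with a median of -1.29. Kif20a, a motor of the central spindle, had 3691 and 1606 normalized reads in Mdm2 C462A, 4745 and 6246 in p53/Mdm2 KO, and 8528, 6347 and 6653 in p53 KO and a difference of -1.54 (SE 0.365). Exons of Kif20a overlap those of Cdc23 on the opposite strand over 31.8% of its length in GENCODE M21, and the strand setting of the counting is not given, so reads of these neighbours cannot be told apart. The same holds, over smaller shares of their exons, for Ccna2, Kif4, Nusap1, Prc1, Cdc20 and Ube2c, so that 7 of the 42 overlap another gene of the table. Kif22, a motor on chromosome arms, had 1555 and 605 normalized reads in Mdm2 C462A, 1704 and 1656 in p53/Mdm2 KO, and 2223, 2109.7 and 1999 in p53 KO, a difference of -1.10 (SE 0.369), with little spread among its p53 KO libraries. Kif11 (-1.21), Kif23 (-1.37), the microtubule depolymerase gene Kif2c (-1.49) and the chromokinesin gene Kif4 (-1.14) lay between.

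Genes of spindle microtubule proteins had a median of -1.01 over 5 members. Hmmr, a spindle protein gene also known for hyaluronan binding, had 2475 and 1025 normalized reads in Mdm2 C462A, 2836 and 3807 in p53/Mdm2 KO, and 4108, 3314 and 3831 in p53 KO and a difference of -1.22 (SE 0.371). Tpx2, the activator of Aurora A on the spindle, had 5167 and 3462 normalized reads in Mdm2 C462A, 6206 and 7768 in p53/Mdm2 KO, and 7664, 7479 and 8544 in p53 KO, a difference of -0.89 (SE 0.222), and both Mdm2 C462A libraries were below all others. Nusap1 (-1.16), Dlgap5 (-0.96) and the astrin gene Spag5 (-1.01) gave the rest.

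The 4 cytokinesis genes had a median of -1.04 and included the smallest difference of the 42. Prc1 had 3418 and 1679 normalized reads in Mdm2 C462A, 3890.3 and 5814 in p53/Mdm2 KO, and 5499.8, 6598 and 6651 in p53 KO and a difference of -1.37 (SE 0.336). Ect2, which encodes the exchange factor that activates RhoA at the cleavage furrow, had 2501 and 2405 normalized reads in Mdm2 C462A, 2976 and 5037 in p53/Mdm2 KO, and 3407, 3454 and 3539 in p53 KO. Its Mdm2 C462A libraries lay 2453 ± 67.7 (SD, n = 2) against 3467 ± 66.6 in p53 KO (SD, n = 3), a difference of -0.50 (SE 0.235, unadjusted p = 0.0762), so the replicates of Mdm2 C462A and of p53 KO lay close together, while the p53/Mdm2 KO replicates were far apart. Racgap1, the partner of Kif23 in the centralspindlin complex, differed by -1.02, and the anillin gene Anln by -1.07.

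Genes of anaphase and mitotic exit had a median of -1.26 over 4 members. Cdca3, a gene of mitotic entry and exit, had 1501 and 616 normalized reads in Mdm2 C462A, 2006 and 1510.2 in p53/Mdm2 KO, and 4362, 1951 and 2174 in p53 KO. Its difference of -1.44 (SE 0.483) rests in part on p53 KO replicate 1, whose value was 2.11 times the mean of the other p53 KO libraries. Ube2c, the ubiquitin-conjugating enzyme of the APC/C, had 1878 and 1125 normalized reads in Mdm2 C462A, 2407 and 2834 in p53/Mdm2 KO, and 3525, 2841 and 2791 in p53 KO, a difference of -1.05 (SE 0.255). Cdc20 had 2354 and 1568 normalized reads in Mdm2 C462A, 3139.7 and 3920.4 in p53/Mdm2 KO, and 5558, 4451 and 4013 in p53 KO and a difference of -1.26 (SE 0.247). The separase gene Espl1, whose enzyme cleaves cohesin, differed by -1.27.

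Mki67, the gene of the Ki-67 antigen that coats mitotic chromosomes, had 8835 and 3053 normalized reads in Mdm2 C462A, 9711 and 12160.5 in p53/Mdm2 KO, and 13744, 17436 and 15832 in p53 KO. The Mdm2 C462A mean was 37.9% of the p53 KO mean, a log2 difference of -1.58 (SE 0.431). Top2a, the topoisomerase gene needed to separate sister chromatids, had 10591 and 5729 normalized reads in Mdm2 C462A, 12241 and 17052 in p53/Mdm2 KO, and 16199, 16264 and 16432 in p53 KO, a difference of -1.06 (SE 0.295). The p53 KO libraries agreed closely for Top2a (SD 120.2) whereas the Mdm2 C462A libraries were far apart (SD 3438).

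**Figure D2:**
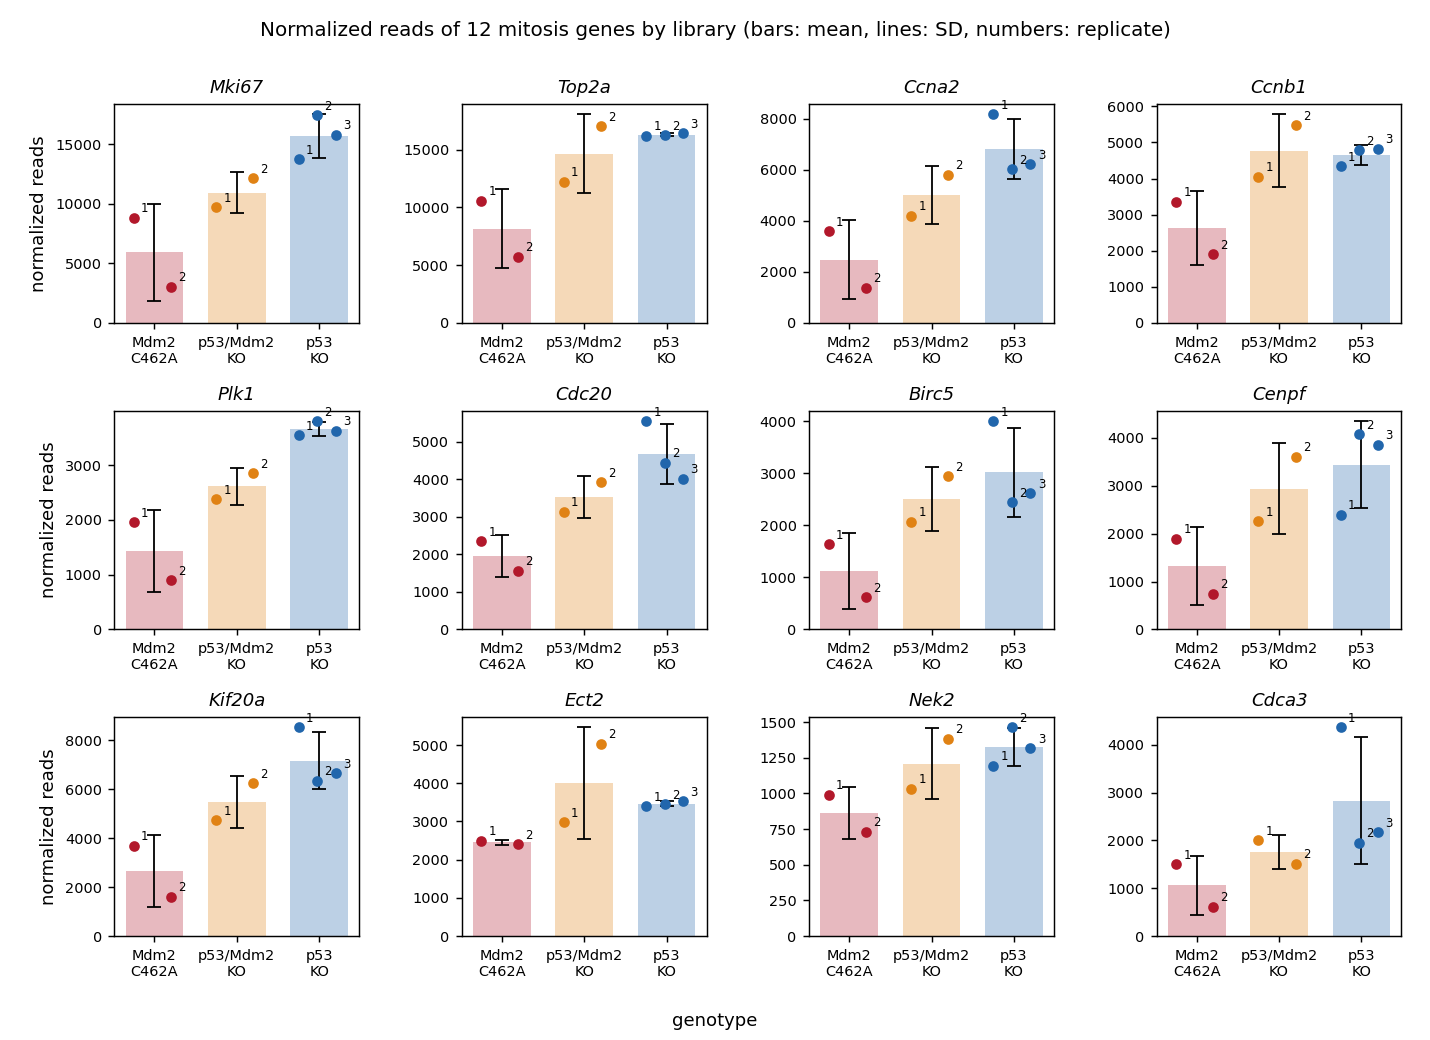
Normalized reads (linear axes from 0) of 12 mitosis genes in the 7 libraries, with Mdm2 C462A, p53/Mdm2 KO and p53 KO from left to right; points are libraries marked by replicate number, bars are group means and lines are SD. Both Mdm2 C462A points lie below all p53 KO points for all 12, and the gap between both Mdm2 C462A points is widest for Mki67 and smallest for Ect2.

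By the labels, the second contrast is removal of Mdm2 altogether from cells without p53. It uses the same 3 p53 KO libraries as the one above. Here 40 of 42 genes were lower in p53/Mdm2 KO, against 51.8% of all tested genes. The fitted log2 differences ran from -0.60 (Cdca3) to 0.16 (Ect2), with a median of -0.28 against -0.01 over all tested genes. None was lower by more than 1, against 2.67% of tested genes. In 15 of 42 both p53/Mdm2 KO libraries lay below all p53 KO libraries (9.2% of tested genes did), and in 27 the groups overlapped. By limma 0 of the 42 and 0 of 16900 genes had an adjusted p under 0.05 (0% of all tested), and 0 of the 42 had an unadjusted p under 0.05, against 1.49% of tested genes on the lower side and 507 (3%) in both directions. The voom fit called 0 genes. Without p53/Mdm2 KO replicate 1 the median was -0.04 with 25 of 42 genes lower, and without p53/Mdm2 KO replicate 2 it was -0.49 with all 42 lower. Without p53 KO replicate 1 it was -0.19 with 39 lower.

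Ccnb2 had 1861 and 2082 normalized reads in p53/Mdm2 KO and 4667, 2145 and 2595 in p53 KO, a log2 difference of -0.58 (SE 0.421, unadjusted p = 0.211, limma). p53 KO replicate 1 was the highest, and the p53/Mdm2 KO values lay just under the other p53 KO libraries. The kinase gene Plk1 had 2378 and 2853 normalized reads in p53/Mdm2 KO, against 3546, 3805 and 3625 in p53 KO, without overlap. In 8 genes, Ccnb1, Aurka, Bub1, Cenpe, Kif4, Ect2, Anln and Top2a, p53/Mdm2 KO replicate 2 was the highest of all 7 libraries. p53 KO replicates 1, 2 and 3 were the highest for 28, 4 and 2 genes. The share of all tested genes with each library highest was not computed. Anln, an actin-binding scaffold of the furrow, had 9121 and 15164 normalized reads in p53/Mdm2 KO, against 10592, 13113 and 12678 in p53 KO, so its p53/Mdm2 KO libraries lay on both sides of all p53 KO libraries. Ect2 (0.16) and Ccnb1 (0.02) were the members with a value above 0, and both turned to below 0 without p53/Mdm2 KO replicate 2 (-0.22 and -0.19).

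**Figure D3:**
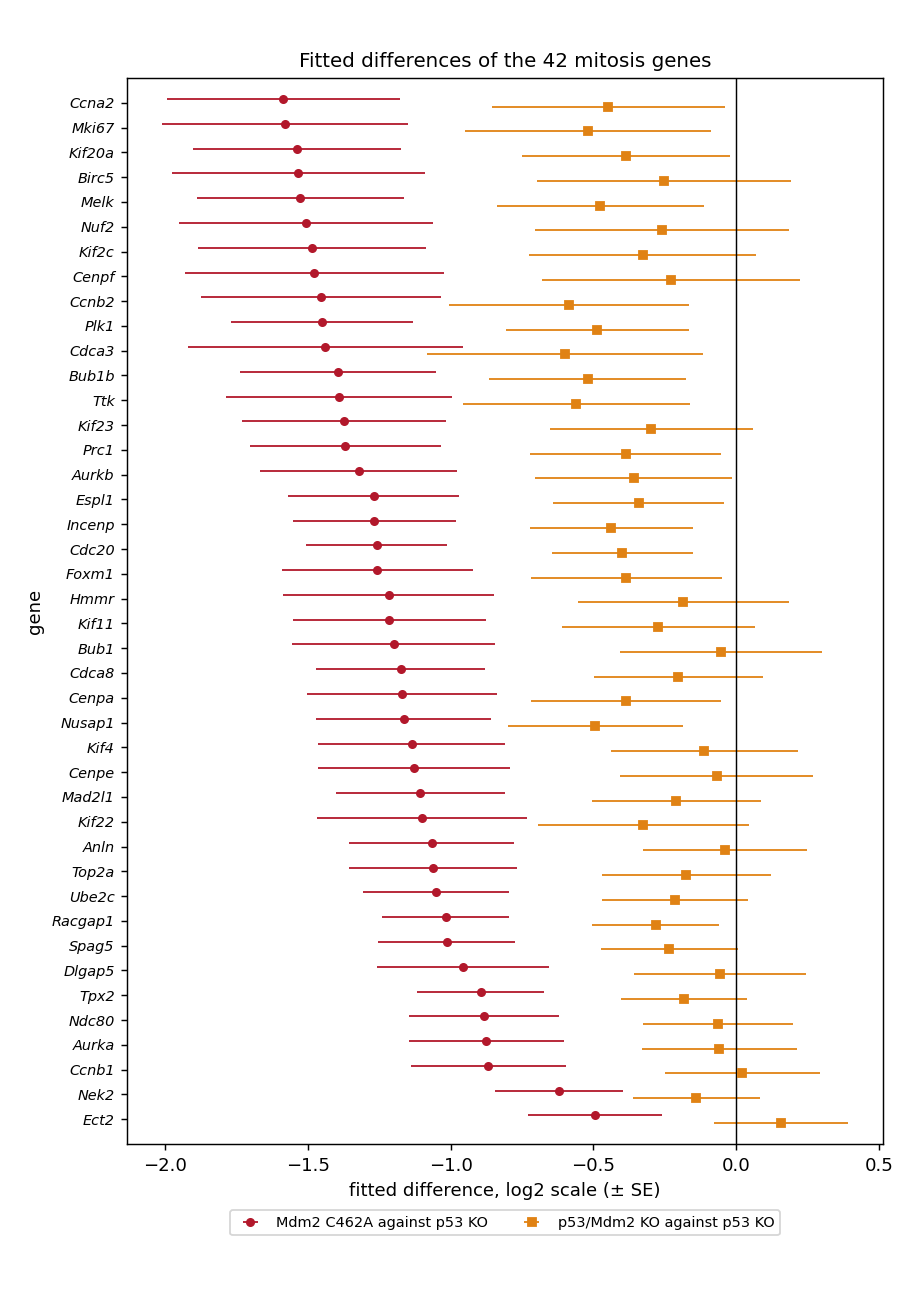
Fitted differences (x axis, log2 scale, lines ± SE) of the 42 genes (y axis, ordered by the red points): red circles for Mdm2 C462A against p53 KO, orange squares for p53/Mdm2 KO against p53 KO, which share the p53 KO libraries. The red points run from -1.59 for Ccna2 to -0.50 for Ect2, and the orange points from -0.60 for Cdca3 to 0.16 for Ect2.

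Set directly beside the libraries without Mdm2, all 42 genes were lower in Mdm2 C462A, against 48.3% of all tested genes. They had a median log2 difference of -0.90 (0.01 over all tested genes), from -1.28 for Birc5 to -0.48 for Nek2. Of the 42, 14 were lower by more than 1, against 2.29% of tested genes. Without Mdm2 C462A replicate 2 the single differences ran from -0.74 to -0.11, so none was lower by more than 1. Both Mdm2 C462A libraries were below both p53/Mdm2 KO libraries for all 42, as they were on the lower side for 17.1% of tested genes. By limma 0 genes had an adjusted p under 0.05, members and all 16900 tested alike (0% of all tested). An unadjusted p under 0.05 on the lower side was found for 32 of the 42 and 1.78% of tested genes, with 503 genes (2.98%) in both directions. The voom fit called 0 genes. Mdm2 C462A replicate 1 and p53/Mdm2 KO replicate 1 were near each other: the difference between these libraries had a median of -0.27 over the 42 genes, from -0.41 (Cdca3) to -0.03 (Ttk). Without Mdm2 C462A replicate 2 the median was -0.47 with 0 of 42 at an unadjusted p under 0.05, and without Mdm2 C462A replicate 1 it was -1.41 with 40. Without p53/Mdm2 KO replicate 2 the median was -0.71 and the count 0, and without p53 KO replicate 2 or 3, which enter only the estimate of spread, the counts were 19 and 18.

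Within p53 KO the mitosis genes did not vary as a block in replicate 1, the library that stood apart over all tested genes. The shares of all tested genes with the orders given next were not computed. Replicate 1 was the highest p53 KO library for 29 genes and the lowest for 11, Ccnb1, Plk1, Nek2, Aurka, Cenpe, Cenpf, Prc1, Ect2, Anln, Mki67 and Top2a. It exceeded 1.5 times the mean of the other p53 KO libraries for 6 genes, Ccnb2, Foxm1, Birc5, Mad2l1, Cenpa and Cdca3. Cenpf went the opposite way, with 2393 normalized reads in p53 KO replicate 1 and 4069 and 3848 in replicates 2 and 3. Replicates 2 and 3 were near each other, with a median log2 difference between them of -0.01 over the 42 genes. Per kilobase of merged exon length in GENCODE M21, the p53 KO mean was highest for Top2a (3122 normalized reads per kilobase), Anln (2634) and Cdc20 (2607), and lowest for Cenpf (309); merged length overstates the transcript where isoforms differ.

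Mitosis genes outside the 42 were read from another list of 81 symbols, of which 77 were in the table and 76 passed the filter. All 76 were lower in Mdm2 C462A than in p53 KO (median -1.02), 60 of them at an unadjusted p under 0.05, against 5.44% of all tested genes on that side, and 0 at an adjusted p under 0.05. Without Mdm2 C462A replicate 2 the median was -0.61 with 75 lower and 16 at that p, without p53 KO replicate 1 it was -0.91 with 74 lower and 52, and without both -0.54 with 71 lower and 17. Shcbp1, which encodes a midbody protein, had 931 and 348 normalized reads in Mdm2 C462A, 1108 and 1690.5 in p53/Mdm2 KO, and 2380.4, 1483 and 1701 in p53 KO (log2 difference -1.63, SE 0.444), and Iqgap3, which encodes a scaffold protein, had 1743 and 591 normalized reads in Mdm2 C462A, 2037 and 2711 in p53/Mdm2 KO, and 4655, 2727 and 2396 in p53 KO (log2 difference -1.60). In p53/Mdm2 KO against p53 KO, 68 of 76 were lower (median -0.21), 1 of them at an unadjusted p under 0.05 (1.49% of all tested genes), and 55 were lower without p53 KO replicate 1. In Mdm2 C462A against p53/Mdm2 KO all 76 were lower (median -0.76), 33 at that p (1.78% of all tested genes), and without Mdm2 C462A replicate 2 the median was -0.43 with 2 at that p.

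The 13 core APC/C subunit and Fzr1 genes, whose products act in mitosis but whose transcripts are present through the cycle, had smaller values. All 13 were lower in Mdm2 C462A than in p53 KO, with a median of -0.30 and none beyond -0.52 (Cdc23), and 1 of 13 had an unadjusted p under 0.05, where 5.44% of all tested genes were lower at that p; that gene was Cdc23, which shares exon sequence with Kif20a on the other strand. Without Mdm2 C462A replicate 2 the median was -0.15 with 11 lower, without p53 KO replicate 1 it was -0.16 with 11 lower, and without both 8 were lower. Between p53/Mdm2 KO and p53 KO all 13 were lower (median -0.15), but 7 without p53 KO replicate 1.

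Among 21 genes of the DREAM, MuvB and E2F regulators, 16 were lower in Mdm2 C462A than in p53 KO (median -0.40), where 48.8% of all tested genes were. Of them 8 had an unadjusted p under 0.05, against 5.44% of all tested genes, and 0 an adjusted p under 0.05. Without Mdm2 C462A replicate 2 the median was -0.29 and the count 0, without p53 KO replicate 1 they were -0.28 and 7, and without both -0.21 and 1. E2f8, a repressor of the E2F family, had 509 and 172 normalized reads in Mdm2 C462A, 546 and 805 in p53/Mdm2 KO, and 1791, 991 and 856 in p53 KO (log2 difference -1.88, SE 0.514). Mybl2, the gene of B-Myb, had 829.9 and 497 normalized reads in Mdm2 C462A, 1187 and 1706 in p53/Mdm2 KO, and 2103, 1959 and 1138 in p53 KO (log2 difference -1.35, SE 0.362). The largest values above 0 were those of Cdkn1a, which encodes the Cdk inhibitor p21, with 397 and 347 normalized reads in Mdm2 C462A, 448 and 223 in p53/Mdm2 KO, and 70, 399 and 199.5 in p53 KO (0.95, SE 0.652, unadjusted p = 0.19, limma), and of the MuvB subunit gene Lin52 (0.36). The Cdkn1a groups overlapped, and its lowest value was that of p53 KO replicate 1.

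DNA replication genes, which peak earlier in the cycle, were lower in Mdm2 C462A than in p53 KO in all 43 (median -0.81), 19 of them at an unadjusted p under 0.05, against 5.44% of all tested genes, and 0 at an adjusted p under 0.05. Without p53 KO replicate 1 the median was -0.46 with 42 lower and 13 at that p, without Mdm2 C462A replicate 2 it was -0.58 with 42 lower and 3, and without both -0.20 with 35 lower and 4. Rrm2, a subunit of ribonucleotide reductase, had 2826 and 826 normalized reads in Mdm2 C462A, 3939.5 and 7256 in p53/Mdm2 KO, and 8257, 5831 and 5108 in p53 KO (log2 difference -2.02) and the thymidine kinase gene Tk1 1682 and 530.1 normalized reads in Mdm2 C462A, 2228 and 2711 in p53/Mdm2 KO, and 7000.4, 2611 and 2626 in p53 KO (-1.92). By library the replication list and the mitosis genes differed in p53 KO replicate 1, where the median relative to the p53 KO mean was 0.61 for replication genes and 0.20 for the 42 mitosis genes, against -0.21 and -0.44 for replication genes in p53 KO replicates 2 and 3. This difference between lists was not tested. In Mdm2 C462A replicates 1 and 2 the medians were -0.58 and -1.10 for replication genes and -0.79 and -1.66 for mitosis genes.

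**Figure D4:**
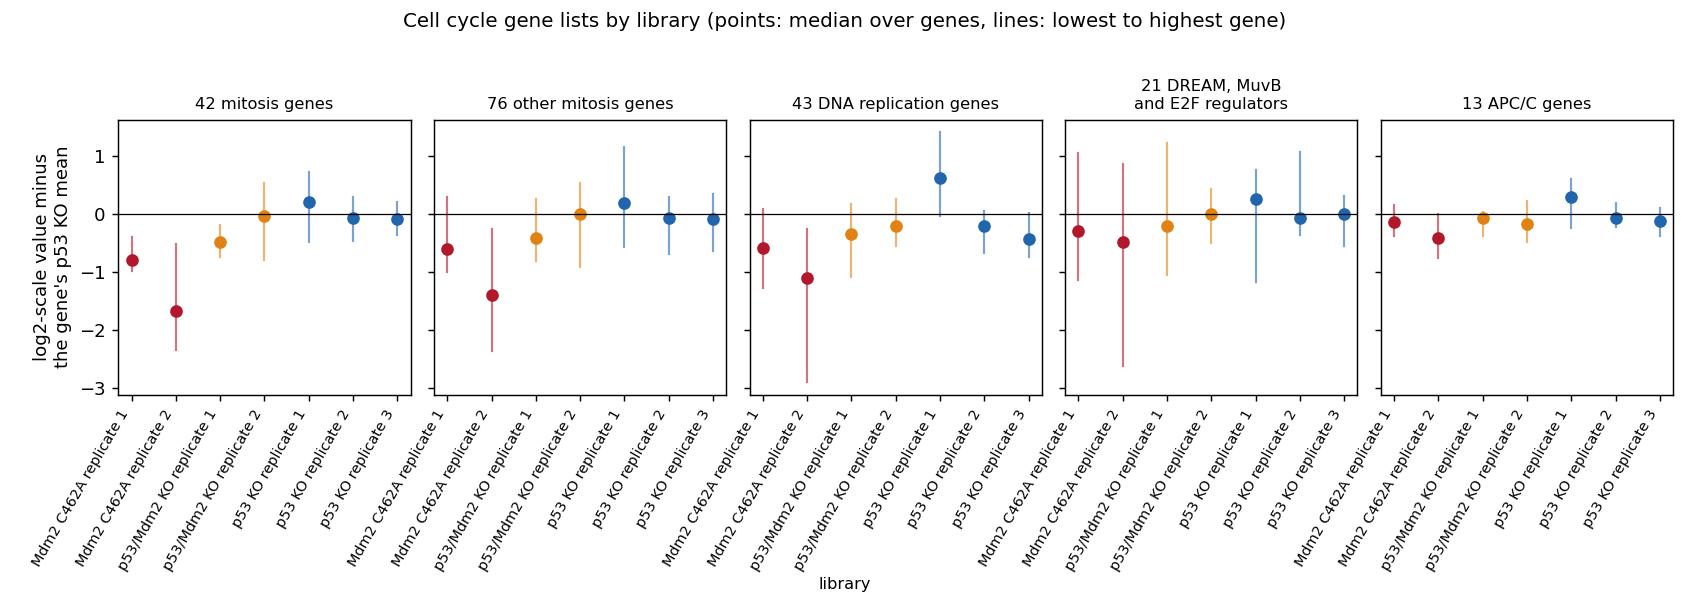
Deposited log2-scale values minus each gene's p53 KO mean (y axis) in the 7 libraries (x axis, Mdm2 C462A in red, p53/Mdm2 KO in orange, p53 KO in blue) for 5 gene lists; points are medians over the genes of a list and lines run from the lowest to the highest gene. For the 42 mitosis genes the medians are -0.79 and -1.66 in Mdm2 C462A, while replication genes stand highest in p53 KO replicate 1 at 0.61.

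Among all tested genes, likeness to the mean profile of the 42 was measured as the root mean square distance between centred deposited values over the 7 libraries, on the log2 scale. The median over the 42 members, which form that profile, was 0.17, against 0.66 over all tested genes, and the member farthest from it was Ect2 (0.41). Of the 100 nearest genes, 28 were members, 23 were on the other mitosis list and 1 on the replication list. By symbol, the nearest named genes outside all lists were Rangap1, the GTPase activator of Ran (distance 0.0887), the clone-named entry mKIAA0008 (0.107) and Mns1 (0.108). Next came the mitotic helicase gene Ercc6l (0.12), the histone chaperone gene Asf1b (0.121), the alpha-tubulin gene Tuba1c (0.127) and Wdhd1 (0.131). The alpha-tubulin gene Tuba3a (0.138), the clone-named entry mKIAA1835 (0.139) and the nuclease gene Dna2 (0.143) followed. A clone-named entry may be a second row of a listed gene, which was not checked, so its likeness may be that of a member. Alpha-tubulin genes are near-identical copies, so reads of Tuba1c and Tuba3a are not separated with certainty. Rangap1 had 4430.4 and 2254 normalized reads in Mdm2 C462A, 5157 and 6798 in p53/Mdm2 KO, and 8889, 7798 and 6445 in p53 KO, with both Mdm2 C462A libraries below all others.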

How the data were processed

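Each gene has 1 deposited value per library, on a log2 scale after a variance-stabilising transformation, as its values show; the authors used CASAVA 1.8.2, Bowtie2 2.1.0, DESeq 1.14.0 and build mm9, per the submitters' processing notes. For the counting tool, the annotation and the use of strand, the sources used here give nothing. The transformation was inverted, and all values came out as whole reads within 0.05 of a read. Differences were fitted on the deposited log2 values with limma 3.58.1 (R 4.3.3, mean-variance trend, all 7 libraries in 1 fit, 4 residual degrees of freedom) for the 16900 genes averaging 10 or more normalized reads, with Benjamini-Hochberg adjustment over all of them. DESeq2 and edgeR were not run, because the deposited unit is not counts; the voom fit of limma on recovered reads served as an alternative. The mitosis genes and the other lists were chosen with earlier results of these data known. Values in all libraries are given for the largest and smallest difference in each role group, and for Foxm1 and Cdc20. These, and Ccnb2, Plk1, Anln and Cenpf, given in fewer libraries, were chosen after their values were seen. Alternatives were other scales, filters, scalings, variance models, library weights, only the compared groups, a replicate block and left-out libraries.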

Additional observations from a re-analysis of the deposited data

How the results depend on the processing

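Over 19 alternatives, the median difference of the mitosis genes stayed below 0 in each comparison and all 42 stayed lower in Mdm2 C462A than in p53 KO. Leaving out 1 library gave medians from -1.66 to -0.79 for Mdm2 C462A against p53 KO, from -0.49 to -0.04 for p53/Mdm2 KO against p53 KO and from -1.41 to -0.47 for Mdm2 C462A against p53/Mdm2 KO. The count of the 42 at an unadjusted p under 0.05 then ran from 19 to 42, from 0 to 3 and from 0 to 40 in those comparisons, and the count lower in p53/Mdm2 KO than in p53 KO from 25 to 42. Without both p53 KO replicate 1 and Mdm2 C462A replicate 2 the p counts were 21, 3 and 1, and 1 gene had an adjusted p under 0.05 by limma for p53/Mdm2 KO against p53 KO (Ifi202b, log2 difference -6.70, adjusted p = 0.0315), chosen after its value was seen. With only the compared groups the p counts were 3 for p53/Mdm2 KO against p53 KO and 8 for Mdm2 C462A against p53/Mdm2 KO. For the alternatives in this section, the shares of all tested genes at such a p were not computed, so these counts have no background beside them. Ccnb1 in p53/Mdm2 KO against p53 KO turned to -0.0175 with library weights and to -0.03 without both libraries, and ran from -0.19 to 0.24 when 1 library was left out; Ect2 ran from -0.22 to 0.54. The causes were not tested. With the replicate number as a block the p count was 35 for Mdm2 C462A against p53 KO and 10 for Mdm2 C462A against p53/Mdm2 KO. Same-numbered libraries had correlations of deviations from their group means from -0.16 to 0.20. In a group of 2 libraries the deviations mirror each other, so these correlations cannot decide whether the numbers pair. The labels do not say that they do, and the number was not taken as a pairing. Some same-numbered libraries were nonetheless close. By a chi-square of counts per degree of freedom, Mdm2 C462A replicate 1 and p53/Mdm2 KO replicate 1 were the nearest of all pairs (44.1, against 246.1 and 125.3 to their own genotype), and p53/Mdm2 KO replicate 2 was nearest to p53 KO replicate 2 (94.0). Whether same-numbered libraries share a batch was not tested. Counting error was small at these depths, so the spread between libraries sets the precision of these values.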
